A study of Mus musculus with 10 samples.

Results

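The CDK inhibitors and the cyclin D, CDK4 and CDK6 genes, which together set the pace of G1, were followed across MAF9 leukemia cells treated with 4 inhibitors of the MLL pathway. The group comprised 10 genes of 24015 counted, chosen by name with earlier results of these data known. They were the CIP/KIP inhibitor genes Cdkn1a (p21) and Cdkn1b (p27), the INK4 genes Cdkn2a (p16Ink4a and p19Arf), Cdkn2c (p18Ink4c) and Cdkn2d (p19Ink4d), the D cyclins Ccnd1, Ccnd2 and Ccnd3, and the kinase genes Cdk4 and Cdk6. All 10 passed the filter on low counts, which kept 12971 genes.

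MAF9 cells are C57BL/6 bone marrow cells of the mouse that carry MLL-AF9 through transduction, and every group carried this fusion and grew in IMDM with 15% FBS and 10 ng/ml IL-3. The 5 groups had 2 RNA-seq libraries each. Cells received MM-401, which disrupts the binding of WDR5 to MLL1, EPZ5676, an inhibitor of the H3K79 methyltransferase DOT1L, MI-2-2, which blocks MENIN, or iBET. Each inhibitor was given at its IC50 dose for 4 days, and the fifth group received DMSO alone. All libraries came from the transduced bone marrow cells in culture, so that the data describe that model and not leukemia in an animal. The labels call the libraries biological duplicates without saying whether they came from separate cultures, so that p-values measure the spread between these libraries only.

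D-type cyclins bind CDK4 and CDK6, and the active kinases phosphorylate RB, which frees E2F factors to switch on the genes of S phase. INK4 proteins bind CDK4 and CDK6 directly and keep cyclin D away, whereas p21 and p27 bind assembled cyclin-CDK complexes and restrain CDK2 most strongly. In the myeloid lineage, CDK6 is the kinase best known for a role in MLL-rearranged leukemia, and p18Ink4c, p21 and p27 are known to restrain the division of blood stem and progenitor cells.

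To show what lies upstream of the genes that fell together below, the RefSeq promoters (GRCm38.p6, 250 bases before to 50 bases after the start) of Cdkn2c, Cdk4 and Cdk6 are printed, with CACGTG, the E-box bound by MYC and related factors, in capitals. Cdkn2c has 2 annotated starts.
Cdkn2c, chr4:109666707-109667006, strand -: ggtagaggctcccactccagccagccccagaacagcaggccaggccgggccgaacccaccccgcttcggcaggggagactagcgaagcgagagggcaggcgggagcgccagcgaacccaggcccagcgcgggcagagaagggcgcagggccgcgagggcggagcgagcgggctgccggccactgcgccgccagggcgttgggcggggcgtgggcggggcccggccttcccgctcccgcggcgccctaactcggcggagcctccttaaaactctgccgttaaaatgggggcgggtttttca
Cdkn2c, chr4:109665323-109665622, strand -: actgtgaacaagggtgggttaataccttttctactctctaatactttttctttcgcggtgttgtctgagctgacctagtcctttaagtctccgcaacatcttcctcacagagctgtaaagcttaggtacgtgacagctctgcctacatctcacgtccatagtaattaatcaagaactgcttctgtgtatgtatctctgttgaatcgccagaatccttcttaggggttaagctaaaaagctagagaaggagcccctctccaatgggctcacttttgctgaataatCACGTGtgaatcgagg
Cdk4, chr10:127063285-127063584, strand +: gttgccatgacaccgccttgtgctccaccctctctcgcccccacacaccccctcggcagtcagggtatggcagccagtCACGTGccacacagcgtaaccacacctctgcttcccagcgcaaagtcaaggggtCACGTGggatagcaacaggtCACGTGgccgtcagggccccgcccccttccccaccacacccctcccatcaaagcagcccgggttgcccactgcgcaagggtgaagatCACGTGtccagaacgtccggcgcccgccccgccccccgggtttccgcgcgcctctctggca
Cdk6, chr5:3343643-3343942, strand +: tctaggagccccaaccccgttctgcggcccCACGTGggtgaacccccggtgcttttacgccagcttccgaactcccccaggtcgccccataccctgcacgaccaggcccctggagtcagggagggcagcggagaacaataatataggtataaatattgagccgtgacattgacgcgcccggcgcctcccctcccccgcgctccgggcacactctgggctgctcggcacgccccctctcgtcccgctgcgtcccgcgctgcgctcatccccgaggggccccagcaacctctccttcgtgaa
The Cdk4 promoter held 4 copies of CACGTG, 172, 118, 98 and 11 bases before the start. Of 32851 promoters of this length, 7.15% held at least 1 copy on either strand (the letters read the same on both) and 8 (0.0244%) held 4 or more. Cdk6 held 1 copy, 220 bases before the start. Cdkn2c held none at its upstream start and 1 copy 34 bases after its downstream start. No copy was found in the promoters of Cdkn1a, Cdkn1b, Cdkn2a, Cdkn2d or Ccnd3. Of the other motifs searched for, GGGCGG, the core letters bound by SP1, occurred in 35.7% of all promoters on either strand, in 3 copies in Cdk4, 4 in the upstream Cdkn2c promoter and none in Cdk6. The E2F site TTTCCCGC occurred in the upstream Cdkn2a promoter and in 1.07% of all promoters, and TTTGGCGC, found in 0.514%, occurred in none of the members. Copies of different motifs may overlap. The promoters were matched for 8 of the 10 genes by symbol. The printed genes were picked by their fall in these data, and of the motifs searched for only CACGTG was marked. The motif counts are therefore descriptions without a test. Binding was not measured in these libraries.

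The libraries held between 20394762 and 29473127 counted reads. DMSO replicate 2 stood apart from the rest. It had 3630 reads on Y-linked genes (Uty, Kdm5d, Ddx3y and Eif2s3y), where the other 9 libraries had 0 to 2, and its Xist level of 4.76 CPM compared with at least 928 CPM elsewhere. Between the DMSO libraries 17.1% of genes differed over 2-fold, against 1.65% to 4.53% within each inhibitor group. By these reads DMSO replicate 2 held male cells, and DMSO replicate 1, with 1 Y-linked read and Xist at 3051 CPM, held female cells. The 2 DMSO libraries thus did not come from the same cells, and the reason is not given in the sources used here. For every value against DMSO, a difference between these cells and the spread of replicates cannot be told apart. By the same reads every inhibitor library held female cells, as DMSO replicate 1 did. Without DMSO replicate 1, female treated cells were set against male DMSO cells alone, and drug and cells cannot be told apart. Without DMSO replicate 2, female cells were on both sides, with 1 DMSO library. Values of the members without each DMSO library are given beside the main ones, and EPZ5676, MI-2-2 and iBET were also set against MM-401. Myeloid progenitor markers were present in every library, with summed levels of 10040 to 13720 TMM-normalized CPM (counts per 1000000 reads after TMM scaling) in DMSO. Of the markers of T and NK cells, B cells, erythroid cells and stromal cells, 3 of 5, 1 of 4, 3 of 5 and 1 of 4 had no read in any library. Others of these markers moved with the groups. Col1a1, a collagen gene of stromal cells, was at 0.27 and 0.29 in DMSO, at 6.16 and 18.9 with EPZ5676 and at 2.99 and 11.3 with MI-2-2. Vcam1, an adhesion gene in the stromal list, was at 22.3 and 45.9 in DMSO and at 1.10 and 0.57 with iBET. Nkg7, a granule gene of cytotoxic cells, differed within DMSO, at 1.52 and 65.7. Pf4, a megakaryocyte marker, rose with EPZ5676 and MI-2-2, where the sums of 4 megakaryocyte markers were 5.27 to 6.45 and 3.62 to 7.24, against 0.767 to 2.92 in DMSO. Their part in the levels below was not tested.

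The first comparison asked how each inhibitor changed the members relative to DMSO. With EPZ5676, 5 of the 10 genes changed. Cdkn2c, Cdk4 and Cdk6 fell and Ccnd1 and Cdkn2d rose. MI-2-2 changed these 5 genes in these directions too. iBET raised Cdkn2c and left the other 9 short of the threshold, and MM-401 changed none. In each comparison calls were made at an adjusted p below 0.05 in the quasi-likelihood test of edgeR, with p-values adjusted by the Benjamini-Hochberg method over all 12971 genes. Over all genes the test called 38.1% with EPZ5676, 41.4% with MI-2-2, 13.9% with iBET and 0% with MM-401, and the shares of the 10 members called were near these. In single directions, 18.7% of all genes were called higher and 19.4% lower with EPZ5676, 20.2% and 21.2% with MI-2-2, and 6.38% higher with iBET. All 4 comparisons share the DMSO libraries. RNA was measured in bulk, and fewer cells of a type and less RNA per cell cannot be told apart.

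**Figure D1:**
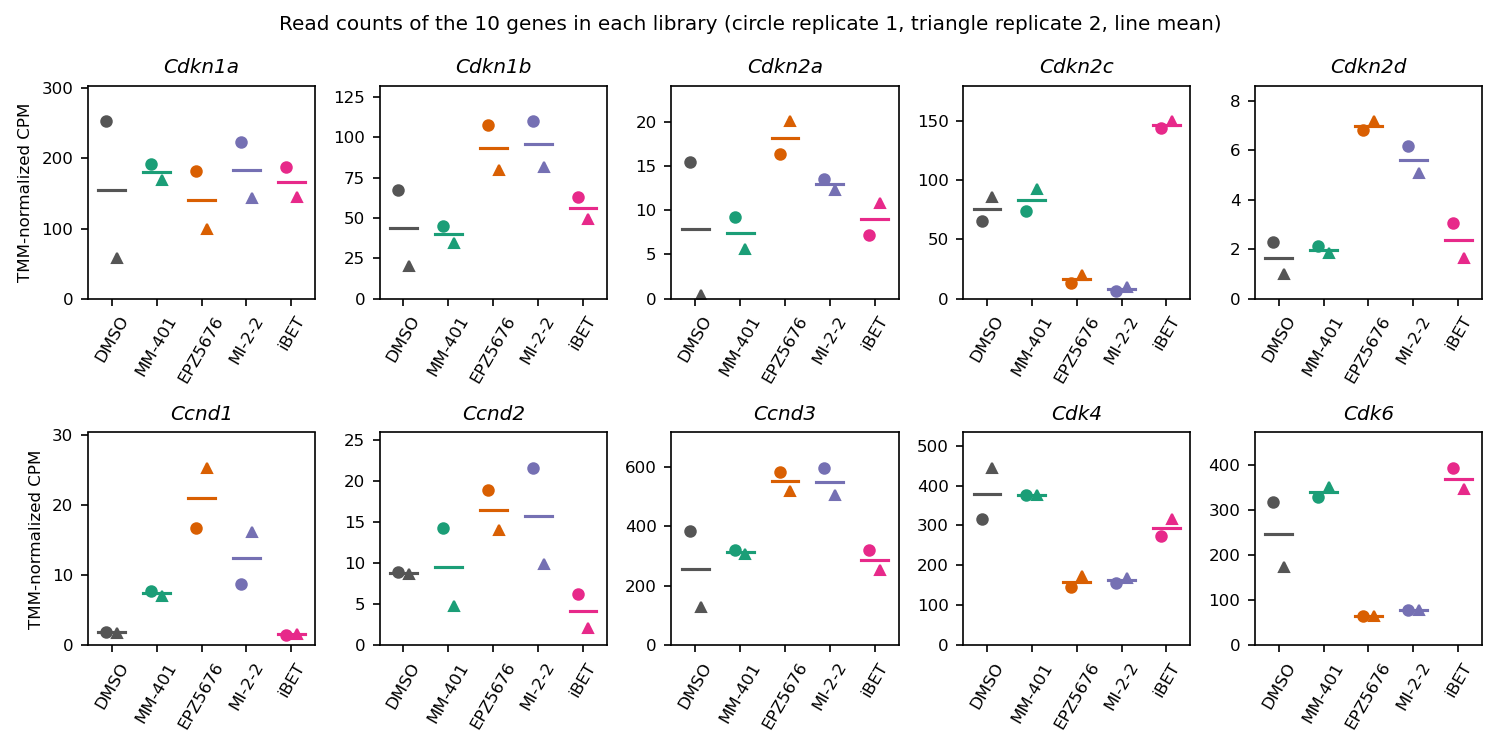
Level of each of the 10 genes in each library, in TMM-normalized CPM on a linear axis from 0 (circles, replicate 1; triangles, replicate 2; lines, group means of 2 libraries). Cdkn2c, Cdk4 and Cdk6 lie lowest in the EPZ5676 and MI-2-2 libraries, and the DMSO libraries lie far apart for Cdkn1a, Cdkn1b, Cdkn2a and Ccnd3.

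Cdkn2c, which encodes the INK4 inhibitor p18, moved in both directions across the inhibitors. It stood at 65.0 and 85.3 TMM-normalized CPM in DMSO and at 74.2 and 92.3 with MM-401. With EPZ5676 it was at 12.8 and 19.9, with MI-2-2 at 6.24 and 9.39, and with iBET at 144 and 149. The MI-2-2, EPZ5676 and iBET libraries thus formed separate ranges, and the ranges of DMSO and MM-401 overlapped. The log2 fold change against DMSO was -3.26 with MI-2-2 (SE 0.287, adjusted p = 0.000507, edgeR), a 9.58-fold lower level. It was -2.20 with EPZ5676 (SE 0.273, adjusted p = 0.0012, edgeR), 4.60-fold lower. With iBET it was 0.97 (SE 0.259, adjusted p = 0.0459, edgeR), 1.95-fold higher. The rise with iBET lost its call without DMSO replicate 1 (log2 0.79, edgeR adjusted p = 0.0845) and without either iBET library (adjusted p = 0.171 and 0.186). It was also lost with DESeq2 size factors in edgeR (adjusted p = 0.0501) and with only the iBET and DMSO libraries in the fit (edgeR adjusted p = 0.11). The falls with EPZ5676 and MI-2-2 kept their call under all alternatives run, at -2.38 and -3.44 without DMSO replicate 1 and -1.97 and -3.02 without DMSO replicate 2.

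Cdk4 and Cdk6, the catalytic partners of the D cyclins, fell with EPZ5676 and MI-2-2. Cdk6 was at 319 and 174 TMM-normalized CPM in DMSO, 328 and 350 with MM-401, and 393 and 346 with iBET. It was at 64.6 and 64.5 with EPZ5676 and at 78.1 and 77.2 with MI-2-2. Both groups lay below every DMSO, MM-401 and iBET library, and the libraries within each of them were close. The log2 fold change of Cdk6 against DMSO was -1.93 with EPZ5676 (SE 0.252, adjusted p = 0.00142, edgeR) and -1.67 with MI-2-2 (SE 0.249, adjusted p = 0.0021, edgeR). It was -1.43 and -1.16 without DMSO replicate 1 and -2.28 and -2.003 without DMSO replicate 2, all called. With only the MI-2-2 and DMSO libraries in the fit, the adjusted p of Cdk6 was 0.0502.

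Cdk4 was at 315 and 444 TMM-normalized CPM in DMSO, at 376 and 375 with MM-401 and at 273 and 316 with iBET. It was at 145 and 174 with EPZ5676 and at 155 and 169 with MI-2-2, below every other library. Its log2 fold change against DMSO was -1.25 with EPZ5676 (SE 0.184, adjusted p = 0.00208, edgeR) and -1.23 with MI-2-2 (SE 0.184, adjusted p = 0.00209, edgeR), with intervals of -1.68 to -0.83 and -1.65 to -0.80. The values were -1.48 and -1.45 without DMSO replicate 1 and -0.96 and -0.93 without DMSO replicate 2, all called. Of the annotated exon bases of Cdk4, 19.7% are shared with Tspan31 on the opposite strand, and whether counting used strand is not given in the sources used here. Tspan31 itself was at 78.5 to 100.4 TMM-normalized CPM in DMSO and at 53.3 to 81.1 across the EPZ5676 and MI-2-2 libraries.

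Ccnd1, the D cyclin that many mitogen pathways induce, rose with EPZ5676 and MI-2-2 from a low level. DMSO libraries held 1.87 and 1.77 TMM-normalized CPM of Ccnd1, and it was at 1.41 and 1.65 with iBET. It was at 7.78 and 7.02 with MM-401, 16.8 and 25.3 with EPZ5676, and 8.72 and 16.2 with MI-2-2. Every MM-401, EPZ5676 and MI-2-2 library lay above every DMSO library, and every iBET library lay below. The log2 fold change was 3.53 with EPZ5676 (SE 0.364, adjusted p = 0.000704, edgeR), 11.5-fold higher, and 2.77 with MI-2-2 (SE 0.355, adjusted p = 0.00121, edgeR), 6.82-fold higher. Leaving out a DMSO library gave 3.51 to 3.57 with EPZ5676 and 2.77 to 2.82 with MI-2-2, all called. With MM-401 the value was 2.02 (SE 0.350, adjusted p = 0.223, edgeR), which missed the threshold. Ccnd1 was called for MM-401 by DESeq2 (adjusted p = 0.000234) and by edgeR without DMSO replicate 1 (adjusted p = 0.034). Of all genes, 11.2% had an unadjusted p below 0.05 with MM-401, and Ccnd1 alone of the 10 members did. DESeq2 called 297 genes with MM-401, Ccnd1 being the only member. Of the exon bases of Ccnd1, 23.4% are shared with a gene on the opposite strand, LTO1, listed in the counts as Oraov1. That gene was at 10.6 to 19.6 TMM-normalized CPM in DMSO and at 17.4 to 20.2 across the EPZ5676 and MI-2-2 libraries.

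Cdkn2d, the INK4 gene encoding p19, also rose from a low level with EPZ5676 and MI-2-2. Its DMSO libraries were at 2.30 and 1.01 TMM-normalized CPM, against 2.11 and 1.85 with MM-401 and 3.05 and 1.65 with iBET. It was at 6.79 and 7.16 with EPZ5676 and at 6.16 and 5.08 with MI-2-2, above all other libraries. The log2 fold change was 2.06 with EPZ5676 (SE 0.448, adjusted p = 0.00956, edgeR) and 1.75 with MI-2-2 (SE 0.445, adjusted p = 0.0159, edgeR). The values were 2.79 and 2.48 without DMSO replicate 1 and 1.62 and 1.32 without DMSO replicate 2, all called (edgeR adjusted p between 0.0019 and 0.037). The call with MI-2-2 was lost without either MI-2-2 library (edgeR adjusted p = 0.0704 and 0.0516). Both calls were also lost in fits of the compared groups alone (adjusted p = 0.0739 and 0.0994).

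The remaining 5 members did not pass the test against DMSO with any inhibitor, and for 4 of them the DMSO libraries were far apart. Cdkn2a was at 15.5 TMM-normalized CPM in DMSO replicate 1 (397 reads) and at 0.384 in replicate 2 (8 reads), a 40.3-fold gap. Its levels in the inhibitor libraries ran from 5.63 with MM-401 to 20.1 with EPZ5676, and counts per gene do not separate the p16Ink4a and p19Arf transcripts. Cdkn1a was at 253 and 58.2 in DMSO and between 99.3 and 224 in the other libraries. These groups all overlapped with DMSO for Cdkn1a, while for Cdkn2a the EPZ5676 libraries alone lay above both DMSO libraries.

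Ccnd3, the main D cyclin of these cells on the scale used below, was at 385 and 130 TMM-normalized CPM in DMSO. It was at 583 and 519 with EPZ5676, 596 and 504 with MI-2-2, 321 and 307 with MM-401, and 319 and 252 with iBET. The EPZ5676 and MI-2-2 libraries lay above all others, at a log2 fold change of 1.10 with EPZ5676 (SE 0.418, adjusted p = 0.071, edgeR) and 1.09 with MI-2-2 (SE 0.418, adjusted p = 0.068, edgeR). Cdkn1b was also highest with EPZ5676 and MI-2-2. It was at 67.3 and 20.3 in DMSO, 107 and 79.8 with EPZ5676, 110 and 81.3 with MI-2-2, 45.1 and 34.7 with MM-401, and 63.0 and 49.2 with iBET. Its log2 fold changes of 1.09 and 1.12 with EPZ5676 and MI-2-2 missed the threshold (edgeR adjusted p = 0.105 and 0.0929). DESeq2 called both genes with both drugs, at adjusted p between 0.0138 and 0.0366. These log2 fold changes depended strongly on which DMSO library was kept. Without DMSO replicate 1, Cdkn1b was called at 2.21 with EPZ5676 and 2.24 with MI-2-2 (edgeR adjusted p = 0.000992 and 0.00084), and Ccnd3 at 2.09 with each (edgeR adjusted p = 0.000223 and 0.000198). Without DMSO replicate 2 neither was called, at 0.50 and 0.54 for Cdkn1b (edgeR adjusted p = 0.202 and 0.172) and 0.54 and 0.55 for Ccnd3 (edgeR adjusted p = 0.0619 and 0.0572). Ccnd2 was at 8.92 and 8.73 in DMSO and ranged from 2.10 with iBET to 21.6 with MI-2-2. Its replicates within MM-401 (14.2 and 4.83), MI-2-2 (21.6 and 9.90) and iBET (6.23 and 2.10) lay far apart.

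**Figure D2:**
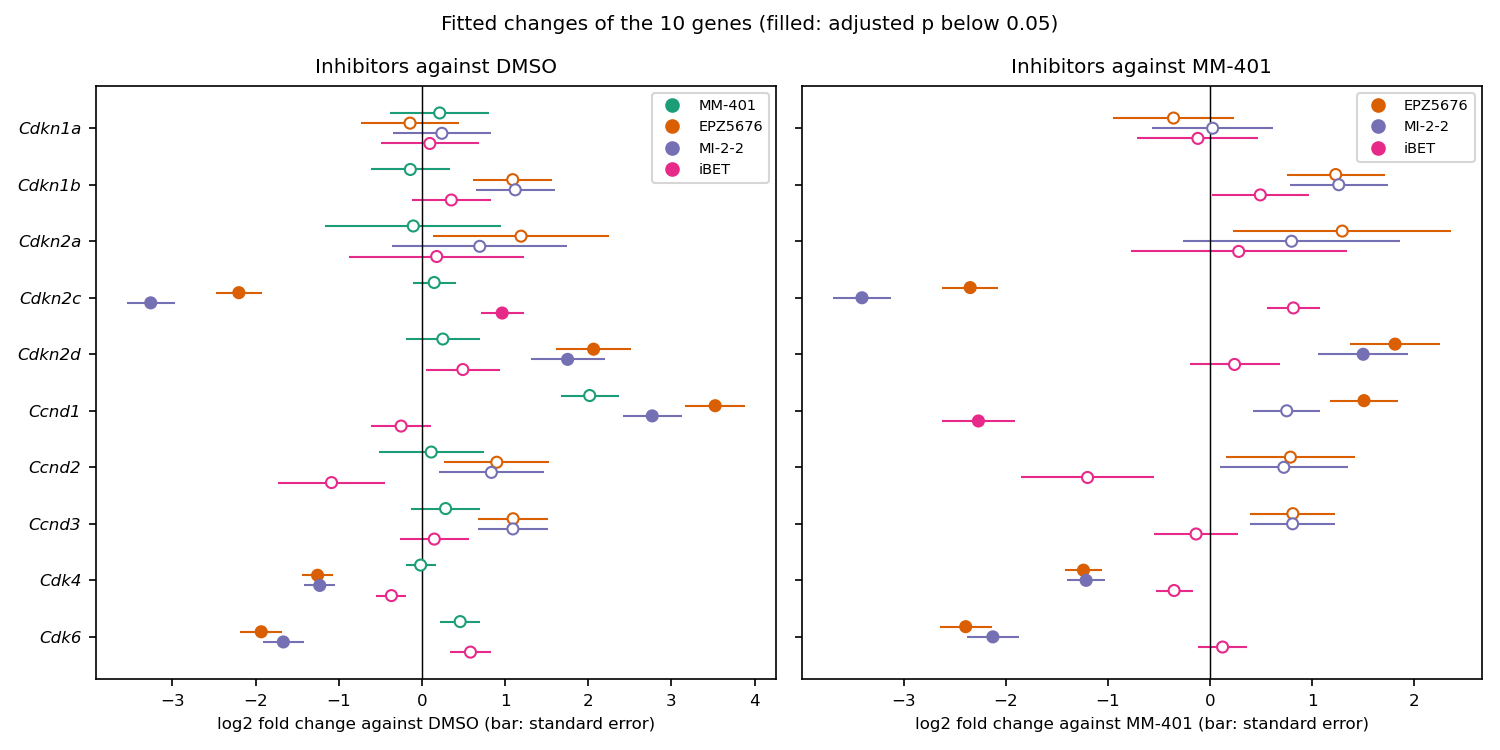
Log2 fold change of each gene against DMSO (left) and against MM-401 (right), from edgeR's fit of 10 libraries; bars are standard errors and filled points passed an adjusted p of 0.05. Cdkn2c, Cdk4 and Cdk6 lie left of 0 for EPZ5676 and MI-2-2 on both sides, and Cdkn2c lies right of 0 for iBET.

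Leaving out DMSO libraries moved the number of members called. Without DMSO replicate 1 only the male DMSO library was left, so that drug and cells cannot be told apart in that fit. Without DMSO replicate 1, so that the lone DMSO library was assumed to vary like the other groups, 9 members were called with either EPZ5676 or MI-2-2, 6 with iBET and 5 with MM-401. The share of all genes called rose in that fit too, to 51% with EPZ5676, 53.9% with MI-2-2, 27.9% with iBET and 10.2% with MM-401. Without DMSO replicate 2 the counts of members were 5, 5, 1 and 0 in that order, beside 35.5%, 37.6%, 21.6% and 0% of all genes. The added calls without DMSO replicate 1 included genes low in DMSO replicate 2, among them Cdkn2a, at a log2 fold change of 4.26 to 5.55 with the 4 inhibitors, and Ccnd3, at 1.14 to 2.09. The log2 fold changes of Cdkn2a with EPZ5676 and MI-2-2 were 0.26 and -0.22 without DMSO replicate 2. The groups did not overlap for 9 of the 10 members with EPZ5676 (64.7% of all genes), 8 with MI-2-2 (67.9%), 4 with iBET (54.6%) and 2 with MM-401 (37.3%).

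The second comparison set the inhibitors against MM-401, which leaves the DMSO libraries out of the difference. EPZ5676 differed from MM-401 in 5 members, where 33.3% of all genes were called, and MI-2-2 in 4, where 35.7% were called. Cdkn2c, Cdk4 and Cdk6 were lower and Cdkn2d higher in each, and Ccnd1 was higher with EPZ5676. Cdk6 was lower by a log2 value of -2.39 with EPZ5676 (SE 0.256, adjusted p = 0.00114, edgeR), 5.25-fold, and of -2.13 with MI-2-2 (SE 0.253, adjusted p = 0.00157, edgeR), 4.37-fold. Cdkn2c was lower by -2.35 with EPZ5676 and -3.41 with MI-2-2 (edgeR adjusted p = 0.00144 and 0.00075). Cdk4 was lower by -1.24 and -1.21 (edgeR adjusted p = 0.00286 and 0.00297).

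The spread of the DMSO libraries still entered the shared dispersion of that fit. In a fit of the 8 inhibitor libraries alone, added after the DMSO libraries had been seen, 8 members were called for EPZ5676 against MM-401 and 6 for MI-2-2, where 48.8% and 51.3% of all genes were called. Cdkn1b was among the added calls, at a log2 fold change of 1.22 with EPZ5676 (edgeR adjusted p = 0.00426) and 1.24 with MI-2-2 (adjusted p = 0.00362). The higher Cdkn2d level was lost as a call in the fit of all groups when a library of MM-401 or of the drug was left out, at adjusted p between 0.0599 and 0.165 in edgeR. The higher Ccnd1 level with EPZ5676 was lost without either MM-401 library or EPZ5676 replicate 2 (edgeR adjusted p = 0.0683, 0.0862 and 0.0743).

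iBET differed from MM-401 in 1 member, where 11.4% of all genes were called (5.96% lower). Ccnd1 was lower with iBET by a log2 value of -2.27 (SE 0.354, adjusted p = 0.00891, edgeR), 4.82-fold. That call was lost when any of the 4 libraries was left out, at adjusted p of 0.0558 to 0.081 in edgeR. Cdkn2c was higher at 0.82 without passing the test (adjusted p = 0.0823, edgeR). It was called in 4 of the 12 alternatives, by DESeq2 (adjusted p = 0.0338) and by edgeR with the inhibitor libraries alone (0.0411), with only the iBET and MM-401 libraries (0.00396) and with a replicate block (0.00998).

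The third comparison set the drugs against each other. EPZ5676 and MI-2-2 differed in none of the 10 members in edgeR, where 0.0154% of all genes (2 genes) were called, and 2 members had an unadjusted p below 0.05 (7.22% of all genes). Those were Cdkn2c, higher with EPZ5676 by a log2 value of 1.06 (interval 0.43 to 1.69, edgeR adjusted p = 0.376, called by DESeq2 with adjusted p = 0.0331), and Ccnd1, higher by 0.76 (interval 0.011 to 1.503, edgeR adjusted p = 0.683). The interval of the difference was -0.44 to 0.39 for Cdk4, -0.83 to 0.30 for Cdk6 and -0.95 to 0.96 for Ccnd3. For Cdkn2a it was -1.92 to 2.91, which allows a large difference either way.

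EPZ5676 differed from iBET in 6 members (37.6% of all genes called) and MI-2-2 differed from iBET in 5 (38.8%). Cdkn2c was 8.97-fold lower with EPZ5676 than with iBET (log2 -3.17, SE 0.282, adjusted p = 0.000277, edgeR) and 18.7-fold lower with MI-2-2 than with iBET (log2 -4.23, SE 0.298, adjusted p = 0.000139, edgeR). Cdk6 was 5.72-fold and 4.76-fold lower (edgeR adjusted p = 0.000438 and 0.000724), and Ccnd1 13.7-fold and 8.11-fold higher (edgeR adjusted p = 0.000371 and 0.000892). Cdk4 was lower by log2 values of -0.89 and -0.86 (edgeR adjusted p = 0.00743 and 0.00855). Ccnd2, which passed no test against DMSO, was higher by 1.99 with EPZ5676 and 1.92 with MI-2-2 (edgeR adjusted p = 0.0453 and 0.0491). Cdkn2d was higher with EPZ5676 at 1.57 (edgeR adjusted p = 0.0247) and reached 1.26 with MI-2-2 (adjusted p = 0.0518). That value with MI-2-2 was called in 6 of 12 alternatives, at adjusted p between 0.0105 and 0.0496 in edgeR or DESeq2. The calls of Ccnd2 were lost with total-count scaling (edgeR adjusted p = 0.0555 and 0.0598) and without either EPZ5676 library, either MI-2-2 library or iBET replicate 2. That of Cdkn2d was lost without either EPZ5676 library or iBET replicate 2. The calls of Cdk4 were lost without EPZ5676 replicate 1 (adjusted p = 0.0515), MI-2-2 replicate 1 (0.0587) or iBET replicate 2 (0.0583 and 0.0661) in edgeR.

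Ordered by mean level across the 5 groups, neighbours differed past the threshold in 3 genes. Cdkn2c ran from MI-2-2 through EPZ5676, DMSO and MM-401 to iBET, with a difference between EPZ5676 and DMSO (edgeR adjusted p = 0.0012). Cdk6 took the order EPZ5676, MI-2-2, DMSO, MM-401, iBET, with a difference between MI-2-2 and DMSO (edgeR adjusted p = 0.0021). Cdk4 rose from EPZ5676 through MI-2-2, iBET and MM-401 to DMSO, with a difference between MI-2-2 and iBET (edgeR adjusted p = 0.00855). In the other 7 genes no neighbours in the order differed past the threshold.

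To compare levels between genes, TMM-normalized CPM was divided by the exon length of the gene in kb (GENCODE M21, GRCm38). Ccnd3 made up between 89.6% and 98.0% of the summed D cyclin level in every library. Ccnd1 was 0.877% and 2.34% of that sum in DMSO, and 4.95% and 8.15% with EPZ5676. The D cyclin sum was 45.3 and 16.1 CPM per kb in DMSO, 72.0 and 66.0 with EPZ5676, 72.1 and 61.9 with MI-2-2, 39.7 and 37.0 with MM-401, and 37.4 and 29.3 with iBET. The EPZ5676 and MI-2-2 sums lay above all others.

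Cdk4 held 74.9% to 92.1% of the summed Cdk4 and Cdk6 level per kb. The sum was 119.7 and 149 CPM per kb in DMSO, 49.2 and 58.0 with EPZ5676, and 53.3 and 57.6 with MI-2-2. In the EPZ5676 and MI-2-2 libraries the kinase sum thus lay below, and the D cyclin sum above, that of every other library. With MM-401 the sum was 139 and 141 CPM per kb, inside the DMSO range, and with iBET it was 112 and 122.

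Among the INK4 genes counted here, Cdkn2c held 62.3% and 97.0% of the sum per kb in DMSO, 75.0% and 85.2% with MM-401, and 87.0% and 84.4% with iBET. With EPZ5676 its share was 20.6% and 25.5%, and with MI-2-2 it was 13.1% and 20.3%. Cdkn2a was then the largest part, at 60.7% and 58.9% with EPZ5676 and 65.0% and 60.9% with MI-2-2. Its counts do not separate p16Ink4a from p19Arf, so that the part of p16Ink4a is not known. Before division by length, Cdkn2a was at 16.4 and 20.1 TMM-normalized CPM with EPZ5676, and Cdkn2c at 12.8 and 19.9. With MI-2-2, Cdkn2a was at 13.6 and 12.3 and Cdkn2c at 6.24 and 9.39. The sum of the 3 INK4 genes was 38.9 and 32.7 CPM per kb in DMSO, 23.1 and 29.1 with EPZ5676, 17.8 and 17.2 with MI-2-2, and 61.7 and 65.9 with iBET. Cdkn1a held 61.5% to 86.2% of the CIP/KIP sum in every library. These shares are descriptions without a test.

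**Figure D3:**
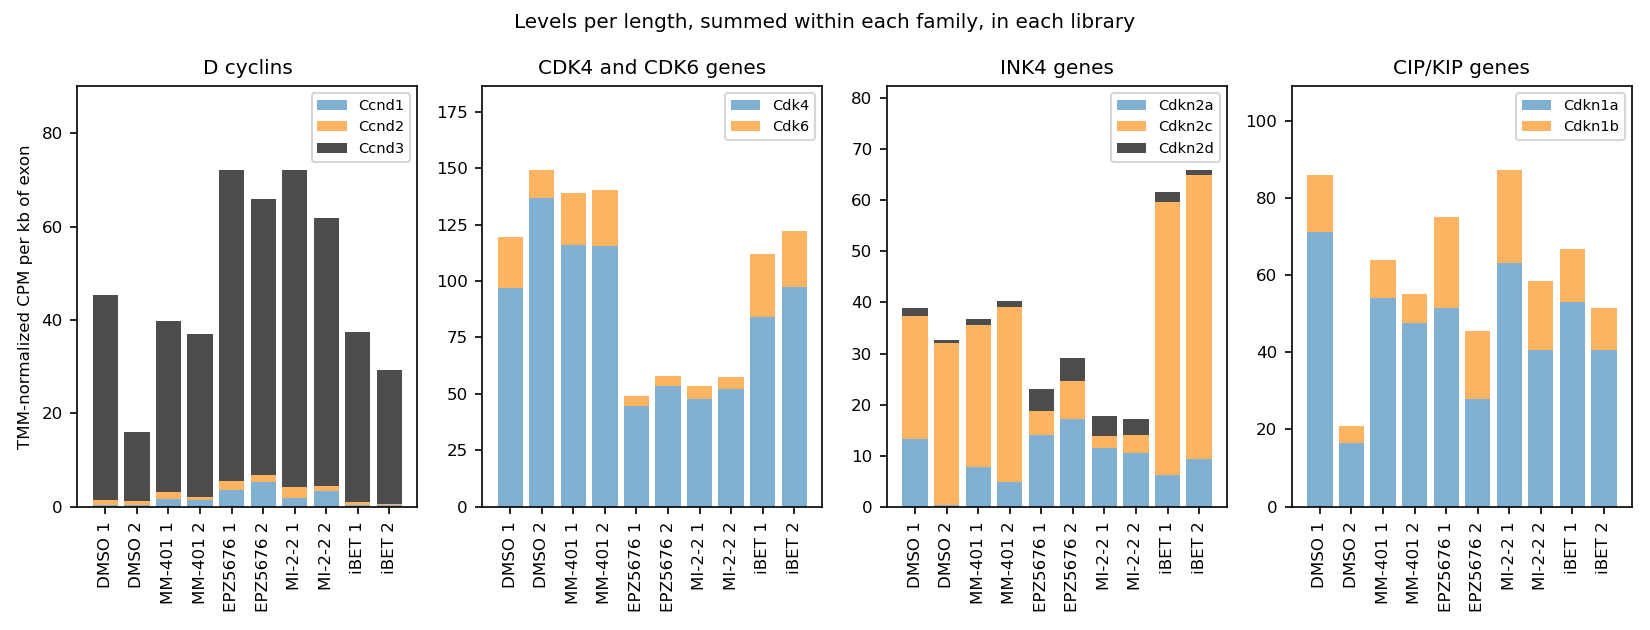
Level per length (TMM-normalized CPM per kb of exon, linear axis from 0) stacked by gene within 4 families, for each of the 10 libraries (numbers 1 and 2 are replicates). Ccnd3 fills most of each D cyclin bar, the Cdk4 and Cdk6 bars are lowest with EPZ5676 and MI-2-2, and Cdkn2c fills most of the INK4 bar with iBET, MM-401 and DMSO but not with EPZ5676 or MI-2-2.

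The genes that act around the members in G1 were called in shares near those over all genes. Of 25 further genes of the G1/S machinery, 4 rose and 6 fell with EPZ5676, 3 rose and 8 fell with MI-2-2, 1 rose and 3 fell with iBET, and none passed the test with MM-401. Over all genes the shares called were the 38.1%, 41.4%, 13.9% and 0% given above. The median log2 fold change of the list was 0.02 with EPZ5676 and -0.33 with MI-2-2, beside -0.06 and -0.05 over all genes tested. E2f2, an activator E2F, rose by 2.29 with EPZ5676 and 2.07 with MI-2-2 (edgeR adjusted p = 0.00982 and 0.0128). Its DMSO libraries were at 80.3 and 21.3 TMM-normalized CPM, and its values were 3.54 and 3.33 without DMSO replicate 1 and 1.65 and 1.44 without DMSO replicate 2, all called. With MM-401 and iBET the values of E2f2 were 1.74 and 2.24 without DMSO replicate 1 but -0.20 and 0.32 without DMSO replicate 2. Cdk2, the kinase that cyclin E activates, rose by 0.68 and 0.64 (edgeR adjusted p = 0.00243 and 0.00273). Cdc25a, a phosphatase that activates CDK2, rose by 1.04 with EPZ5676 and fell with iBET, at -0.76 (edgeR adjusted p = 0.00236 and 0.0204). Tfdp2, a DNA-binding partner of E2F factors, was at -1.01 and -1.04 with EPZ5676 and MI-2-2, and E2f6, a repressor E2F, at -0.90 in each (edgeR adjusted p between 0.00155 and 0.00201).

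With iBET, E2f5, an E2F that acts with pocket proteins, rose by 1.29 (edgeR adjusted p = 0.0322), and Cdkn1c, which encodes the CIP/KIP inhibitor p57, was at -2.86 (edgeR adjusted p = 0.0308). E2f5 lost its call without DMSO replicate 2 (edgeR adjusted p = 0.0541), and Cdkn1c without DMSO replicate 1 (adjusted p = 0.0569). Rb1, which encodes the pocket protein RB, was not called with any inhibitor, at -0.64 with MM-401, 0.53 with EPZ5676, 0.46 with MI-2-2 and 0.04 under iBET. Ccne1 and Ccne2, the E-type cyclins that follow cyclin D, were not called either, with values from -0.44 to 0.46. Cdkn2b, the INK4 gene next to Cdkn2a, was at a mean of 0.768 TMM-normalized CPM in DMSO and was not called. The DMSO libraries held 37 and 2 reads of Cdkn2b. Without DMSO replicate 1 its log2 fold change was 2.75 with MM-401, 3.78 with EPZ5676, 4.38 with MI-2-2 and 4.06 under iBET. Without DMSO replicate 2 it was -1.105, -0.03, 0.57 and 0.22 in that order. Rb1 was at 0.75 with EPZ5676 and 0.69 with MI-2-2 without DMSO replicate 1, and at 0.36 and 0.31 without DMSO replicate 2. Ccne2 with MI-2-2 was at -0.70 and -0.09 in these fits. Without DMSO replicate 1 the called genes of the list numbered 18 with EPZ5676, 17 with MI-2-2, 9 with iBET and 2 with MM-401, and without DMSO replicate 2 they numbered 10, 12, 3 and 0. The shares of all genes in these fits were those given above.

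Of the S phase genes that E2F factors switch on, most fell with EPZ5676 and MI-2-2. Of 21 genes, 12 fell with EPZ5676 and 16 with MI-2-2, iBET lowered 1, none rose, and none passed the test with MM-401. Over all genes 19.4% were called lower with EPZ5676 and 21.2% with MI-2-2. The median log2 fold change of the list was -0.62, -0.91, -0.27 and -0.04 in that order, beside -0.06, -0.05, -0.04 and -0.006 over all genes. Without DMSO replicate 1 the list's median was -0.79, -1.01, -0.38 and -0.30 in that order, beside 0 to 0.024 over all genes. Without DMSO replicate 2 it was -0.47, -0.67, -0.09 and 0.08, beside -0.005 to 0.0005 over all genes. Which genes of this list were called also depended on the DMSO library left out. Ung, which removes uracil from DNA, was at -1.58 with EPZ5676 and -1.77 with MI-2-2 (edgeR adjusted p = 0.00156 and 0.00102). Cdc6, which loads the replicative helicase, was at -1.05 with MI-2-2, and Mcm7, a subunit of that helicase, at -1.18 (edgeR adjusted p = 0.000914 and 0.000924). Rrm2, a subunit of ribonucleotide reductase, was at -0.73 with EPZ5676 (edgeR adjusted p = 0.00228). Cdt1, the partner of Cdc6 in loading, was the gene that fell with iBET, at -0.40 (edgeR adjusted p = 0.0376).

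Genes known as targets of p53, the factor best known for inducing Cdkn1a, were measured as a further list, from which Cdkn1a itself was left out. Of 16 genes tested, 6 rose and 3 fell with EPZ5676, and 6 rose and 3 fell with MI-2-2. Over all genes, 18.7% and 20.2% were called higher and 19.4% and 21.2% lower. The list's median log2 fold change was 0.39 and 0.55, beside -0.06 and -0.05 over all genes. It was 0.49 with MM-401 and 0.13 with iBET, beside -0.006 and -0.04 over all genes. In the fit of all 10 libraries, no gene of the list passed the test with MM-401 or iBET. Which genes of the list were called depended on the DMSO library left out. Btg2, an antiproliferative gene, rose by 2.39 with EPZ5676 and 2.61 with MI-2-2, and Plk2, a polo-like kinase gene, by 3.13 and 3.89 (edgeR adjusted p between 0.000827 and 0.00155). The DMSO libraries held 42 and 16 reads of Plk2. Its values with EPZ5676 and MI-2-2 were 3.80 and 4.55 without DMSO replicate 1 and 2.73 and 3.49 without DMSO replicate 2. With MM-401 and iBET they were 2.28 and 1.88 without DMSO replicate 1 and 1.17 and 0.79 without DMSO replicate 2. Sesn1, a stress-response gene, was at -0.53 and -0.55 and Pmaip1, which encodes the BH3-only protein NOXA, at -0.64 and -0.92 (edgeR adjusted p between 0.00565 and 0.0247). The fits without a DMSO library tested 17 genes of the list. Without DMSO replicate 1 the list's median was 0.62 with EPZ5676, 0.81 with MI-2-2, 0.66 with MM-401 and 0.32 with iBET. Without DMSO replicate 2 it was 0.19, 0.62, 0.20 and -0.06 in that order. Over all genes the medians of these fits were 0 to 0.024 and -0.005 to 0.0005.

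**Figure D4:**
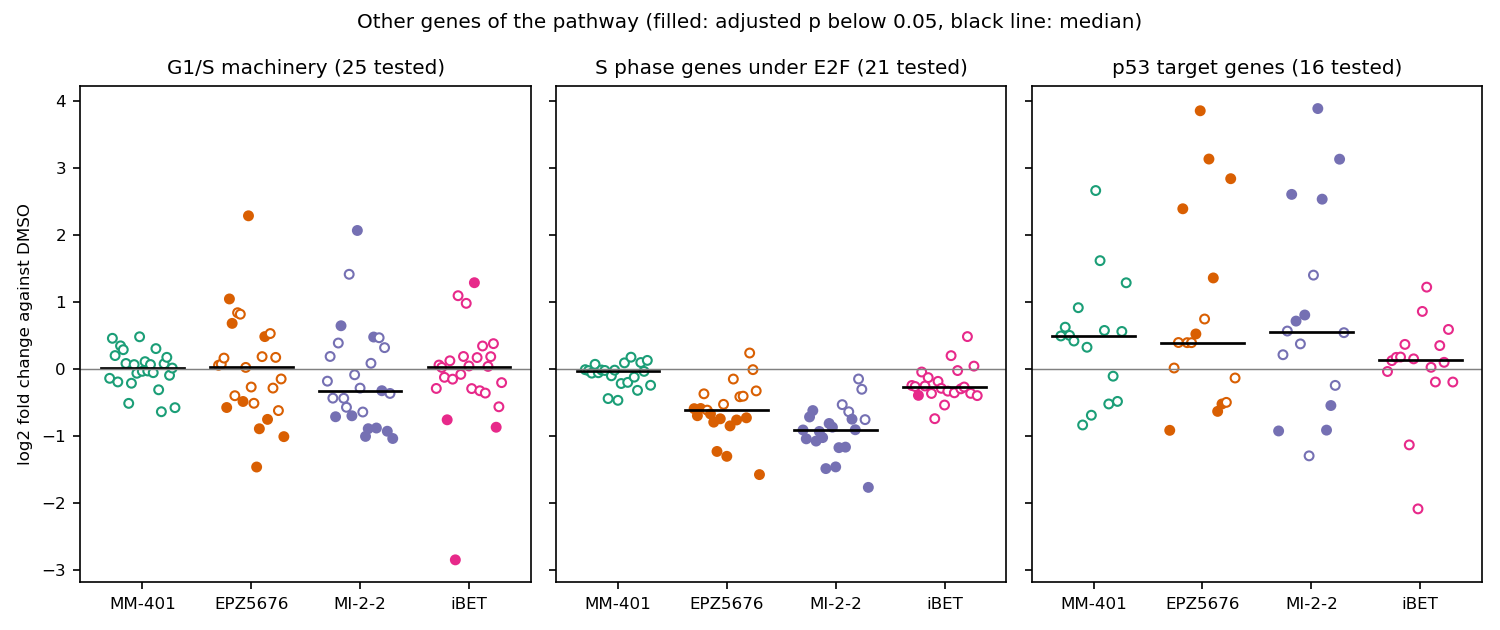
Log2 fold change against DMSO of each gene in 3 lists for each inhibitor (points, with filled points past an adjusted p of 0.05 in edgeR; black lines, list medians). Filled points of the S phase list all lie below 0 with EPZ5676 and MI-2-2, where 12 and 16 of 21 genes fell, and the other lists hold filled points on both sides.

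Markers of maturing myeloid cells moved with these groups. All 5 neutrophil granule markers rose with EPZ5676 and with MI-2-2, where 18.7% and 20.2% of all genes were called higher. Their summed level was 444 to 2172 TMM-normalized CPM in DMSO, 2846 to 3824 with MM-401, 30540 to 41750 with EPZ5676, 28410 to 28870 with MI-2-2, and 305 to 639 with iBET. All 5 macrophage markers rose as well, with sums of 65.2 to 79.7 in DMSO, 103 to 115 with MM-401, 383 to 503 with EPZ5676, 342 to 745 with MI-2-2 and 69.4 to 108 with iBET. Summed myeloid progenitor markers were 4320 to 4893 with EPZ5676 and 3617 to 4014 with MI-2-2. They were 10040 to 13720 in DMSO, 10900 to 11250 with MM-401 and 6250 to 7046 with iBET. The 9 progenitor markers did not move together. Elane, Prtn3, Ctsg and Mpo, which encode granule enzymes, fell with both drugs and Cd34 fell with MI-2-2. Fcgr3, Spi1 and Ptprc rose with both. Kit, also among the 9, passed the test with neither drug. Its DMSO libraries differed widely, with a TMM-normalized CPM of 45.9 for replicate 1 but 180 for replicate 2. Kit levels under EPZ5676 (139 and 111) and MI-2-2 (82.6 and 82.9) lay above DMSO replicate 1 and below DMSO replicate 2. The lower progenitor sums therefore do not describe every marker. Mpo was far apart in DMSO, at 386 and 4817 TMM-normalized CPM, beside 167 and 367 with EPZ5676 and 14.6 and 16.1 with iBET. Elane was at 4195 and 4009 in DMSO and at 747 and 376 with iBET. With iBET, 2 of the 9 were called lower and 0 higher, beside 13.9% of all genes called in either direction. Spi1, which encodes the myeloid factor PU.1, was at 195 and 251 TMM-normalized CPM in DMSO, 399 and 511 with EPZ5676 and 390 and 437 with MI-2-2. No neutrophil, macrophage or progenitor marker was at 0 reads in all libraries. The part of these marker changes in the levels of the cyclin, CDK and inhibitor genes was not tested.

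The genes whose pattern across the 10 libraries was most like that of a member were found by the root mean square difference of centred log2 levels (prior of 0.5 CPM), among 12970 candidates. The closest pair was Cdk4 with Prmt1, an arginine methyltransferase gene, at 0.069, followed by Cdk4 with Wdr55 at 0.074. Cdk6 was closest to Ctsg, the azurophil granule protease cathepsin G, at 0.30 and Dnajc10 at 0.329. Cdkn2c was closest to Parp8 at 0.431 and Epha7 at 0.464. Cdkn1b was closest to C920025E04Rik at 0.130 and Ddb2 at 0.168, Cdkn2d to Llgl2 at 0.141 and Noxred1 at 0.170, and Ccnd3 to Zbtb7b at 0.148 and Ropn1l at 0.161. Cdkn1a came closest to Tpst1 at 0.179 and Pyroxd2 at 0.208. Cdkn2a, Ccnd1 and Ccnd2 had no gene nearer than 0.358, their closest being Yes1 and Lmna, AF251705 and Rasgef1a, and Stk36 and E230016M11Rik. These distances are descriptions over 10 libraries that include the distant DMSO pair.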

How the data were processed

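RNA-seq read counts per gene were deposited by the authors without normalization, as whole-number counts for 24015 symbols in 10 libraries. The submitters' processing notes name TopHat2, Subread, DESeq and mm9, without roles or versions. Whether counting used strand, and how reads shared between genes were treated, is not given in the sources used here. Samples were grouped from their labels. The members and all gene lists were chosen with earlier results of these data known.

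Counts were filtered with filterByExpr, scaled with TMM and tested in R 4.3.3 with edgeR 4.0.16 (glmQLFit and glmQLFTest, 5 groups, no further covariates, all 10 libraries in the fit). Benjamini-Hochberg adjustment covered 12971 genes in each of 10 comparisons, and the threshold was 0.05. The standard error is the log2 fold change divided by the square root of F, and intervals are 95% intervals from the same test. Levels are TMM-normalized CPM, and 1 read was 0.0339 to 0.0490 CPM before TMM scaling.

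Named genes were the 10 members, up to 2 genes per list and direction with the smallest adjusted p against DMSO, Cdkn2b, Cdkn1c, Ccne1, Ccne2 and Rb1, the 2 genes most like each member, and Xist and Y-linked genes. Exon lengths and overlaps came from GENCODE M21 (GRCm38), a later build than that of the counts, and the annotation used for counting may differ. Promoters came from RefSeq (GRCm38.p6). Ccnd1 and Ccnd2 had no promoter entry. Scripts were tested on simulated data. Alternatives were DESeq2 1.42.0, its size factors, total-count scaling, no filter, a filter of at least 1 CPM in 2 libraries, the replicate number as a block, fits of the compared groups alone, each library left out and, added later, the 8 inhibitor libraries alone. Figures were drawn with matplotlib.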

Additional observations from a re-analysis of the deposited data

How the results depend on the processing

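Of 880 alternative values over 77 results, 737 kept their direction and their side of the threshold (or, for counts of members called, stayed within 1.5 times), 40 lost a call, 45 gained one, 28 changed sign and 30 (counts of members called) moved by over 1.5 times. None of the called genes changed sign. Leaving out a library leaves its group with 1 library, which was then assumed to vary like the other groups, and the cause of the moves below was not tested.

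The number of members called against DMSO ranged from 0 to 5 with MM-401, from 5 to 9 with EPZ5676, from 4 to 9 with MI-2-2 and from 0 to 6 with iBET when a library was left out. It ranged from 3 to 4 for EPZ5676 against MM-401, from 0 to 0 for iBET against MM-401, from 3 to 6 for EPZ5676 against iBET and from 3 to 5 for MI-2-2 against iBET. The share of all genes called moved in those fits too. DESeq2 called 1 member with MM-401, 1 between EPZ5676 and MI-2-2 and 2 for iBET against MM-401. Of all genes it called 2.26%, 1.24% and 17% there. With DESeq2 size factors iBET against DMSO had 0, beside 13.5% of all genes. In fits of the compared groups alone, the count was 3 for MI-2-2 and 0 for iBET against DMSO (9.12% and 0% of all genes). It was 8 for EPZ5676 and 3 for iBET against MM-401 (45.6% and 35%) and 8 for MI-2-2 against iBET (49.2%). The inhibitor libraries alone gave 8, 3 and 8 for the last 3, beside 48.8%, 25.2% and 52.1% of all genes.

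With a library left out, the log2 fold change against DMSO of Cdkn1a ranged from -0.50 to 1.64 with MM-401, -0.81 to 1.28 with EPZ5676, -0.42 to 1.67 with MI-2-2 and -0.60 to 1.52 with iBET. Cdkn2a ranged from -1.07 to 4.26 with MM-401, -0.22 to 5.06 with MI-2-2 and -0.78 to 4.54 with iBET. Cdkn1b ranged from -0.77 to 0.98 with MM-401 and -0.26 to 1.47 with iBET, and Ccnd3 from -0.31 to 1.28 and -0.43 to 1.14. Cdkn2d ranged from -0.23 to 0.98 and -0.0089 to 1.22. With MM-401, Cdkn2c ranged from -0.031 to 0.34, Ccnd2 from -0.87 to 0.69 and Cdk4 from -0.24 to 0.24.

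The labels number the libraries 1 and 2 in each group without saying what the numbers share. Deviations of same-numbered libraries correlated at 0.311 to 0.716 across genes. With the replicate number as a block, 2 members were called for iBET against MM-401, where 19% of all genes were called. Counts of members elsewhere stayed within 1.5 times. The block added calls of Cdkn1b and Ccnd3 with EPZ5676 and MI-2-2 against DMSO (edgeR adjusted p between 0.015 and 0.0237). It turned the sign of Cdkn2a (0.10), Ccnd2 (-0.10) and Cdk4 (0.0037) with MM-401 and of Cdkn1a (0.0066) with EPZ5676, none of which was called.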
